A study of Mus musculus with 2 samples.

Results

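Thyroid hormone genes were examined in mouse central nervous system at embryonic day 14. The set of 9 comprises the receptors Thra and Thrb, the plasma membrane transporters Slc16a10 and Slco1c1, the activating deiodinase Dio2, the cytosolic hormone-binding protein Crym, the corepressor Ncor1, and the hormone-induced genes Klf9 and Hr. They were chosen by symbol, all 9 were matched through their Ensembl identifiers, and they stand among 43346 genes in the deposited mm10 tables. The tissue came from C57BL/6J embryos, with male and female littermates pooled, and the labels name no treatment and no engineered allele. There is 1 group with 2 biological replicates, which share a donor identifier, and how many embryos each pool held is not given in the sources used here. Stranded paired-end reads were made from poly(A)+ RNA above 200 nucleotides after removal of ribosomal RNA.

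As background, thyroid hormone enters cells through membrane transporters, and inside them Dio2 converts the prohormone thyroxine to active triiodothyronine and Dio3 inactivates both. The receptors sit on DNA with retinoid X receptors, hold corepressors such as Ncor1 in the absence of hormone, and exchange them for coactivators when hormone binds. In the brain the hormone is known for its part in neuronal migration and differentiation and in myelination, and the alternative Thra product Thra2 lacks a working hormone-binding domain.

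Since the labels describe 1 group only, conditions cannot be compared and no p-value is given. Levels are compared between genes in TPM (the deposited share of transcripts, a measure per length), and replicates are compared as log2 ratios of replicate 2 over replicate 1 in counts scaled by TMM (a trimmed mean over all genes). Values are given for replicate 1 and then replicate 2. The tables held 102727538 and 138440954 expected counts, of which 99528934 and 134760822 belonged to genes, and a gene with no count may still have had as many as 3, which is 0.0301 and 0.0223 CPM (counts scaled to library size). Markers of neurons and of radial glia were all detected (6 of 6 in each list), with summed levels of 3102 and 3518 TPM and of 1102 and 1332 TPM. Markers of neighbouring tissues were much higher in replicate 1: the 6 skeletal muscle markers summed to 567 and 10.8 TPM, the 6 of cartilage and bone to 677 and 110 TPM, the 6 of skin to 129 and 14.2 TPM, and the 5 of the inner ear to 61.5 and 1.14 TPM. In bulk tissue, fewer cells of a type and less RNA per cell cannot be told apart.

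The 9 genes spanned more than 3 orders of magnitude, and 7 of them reached 1 TPM in both replicates. The same level was reached by 34.6% of all genes and by 63.4% of protein-coding genes. In order of mean TPM they ran Thra, Ncor1, Crym, Slco1c1, Slc16a10, Hr, Klf9, Thrb, Dio2, and no neighbours in this order had overlapping replicate ranges. The order was the same in TMM-scaled CPM, in deposited FPKM and in the mm9 RPKM of both fields, although in CPM, which is not per length, the range of Slco1c1 overlapped those of Crym and Slc16a10.

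**Figure D1:**
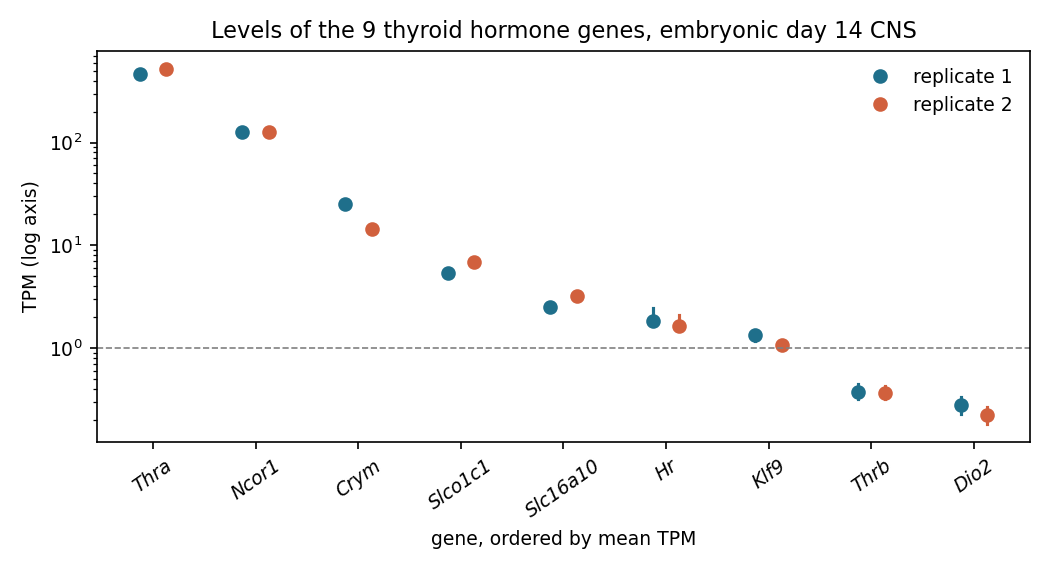
TPM of each of the 9 genes (log axis) in replicate 1 and replicate 2, with the deposited credibility bounds of each estimate as vertical lines and 1 TPM as a dashed line. Thra stood at 464 and 525 TPM, and Thrb and Dio2 were the only genes of the 9 below 1 TPM.

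None of the 9 genes was 2-fold or more apart between the replicates, including the 7 at the count minimum (a mean of 200 or more expected counts). The background was 4.24% of the 14340 genes at that count, made up of 3.95% that were lower and 0.286% that were higher in replicate 2, so 0 of 7 is near what this background gives. The median absolute log2 ratio was 0.30 over these 7 genes, 0.14 over the 43 other listed pathway genes at that count, of 58, and 0.15 over all genes at that count. The 95% intervals given for ratios cover counting error only, not the variation between animals. Those of Thrb and Dio2 (-0.36 to 0.31 and -0.72 to 0.09) included 0, and the depth cannot show a difference there.

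**Figure D2:**
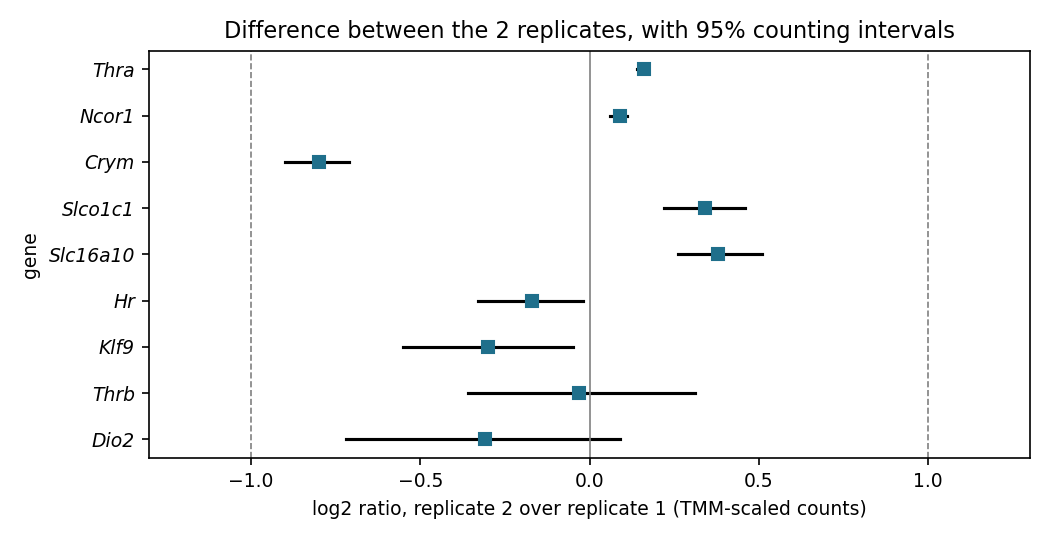
Log2 ratio of replicate 2 over replicate 1 in TMM-scaled counts for each of the 9 genes (squares), with 95% counting intervals (lines), 0 (solid) and 2-fold (dashed). Crym at -0.80 lies nearest the 2-fold line, and the intervals of Thrb and Dio2 cross 0.

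The receptor RNA of this tissue was almost entirely Thra. Thra (ENSMUSG00000058756, chromosome 11, 98740638 to 98769006, plus strand) encodes the alpha receptor and had 464 and 525 TPM (495 ± 43.0, SD, n = 2), from 61420 and 91350 expected counts. Replicate 2 was slightly higher, with a log2 ratio of 0.16 (95% counting interval 0.14 to 0.17), and 46.7% of genes at the count minimum were at least as far apart. The level placed Thra at percentiles 98.9 and 99.0 of protein-coding genes. Thrb (ENSMUSG00000021779, chromosome 14, 17660261 to 18038090, plus strand), the beta receptor, had 0.37 and 0.36 TPM (0.365 ± 0.00707, n = 2), from 134 and 175 expected counts. The TPM of Thra exceeded that of Thrb by 10.29 and 10.51 on the log2 scale (10.4 ± 0.15, n = 2), or 1255-fold and 1459-fold, a difference far above the spread between the replicates.

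Most Thra RNA was assigned to the form that does not bind hormone. The transcripts that encode Thra1, the hormone-binding receptor, and Thra2 share 370 codons up to the end of the exon at chromosome 11, 98764278 to 98764405. Thra1 reads on into the sequence that follows and ends after 410 codons, whereas Thra2 splices to a distant last exon (98768157 to 98769006, 850 nucleotides) and ends after 492 codons. Another form, called Thra3 here, uses an acceptor 117 nucleotides (39 codons) further into that exon. The sequences of mm10 transcripts around this branch are shown because it decides whether the product can bind hormone; lower case marks the last 15 bases before the branch, shared by all 3, and capitals mark the first 15 bases after it.
Thra1: aagctgctgatgaagGTGACTGACCTCCGC
Thra2: aagctgctgatgaagGAGAGAGAAGTGCAG
Thra3: aagctgctgatgaagGGTCCGCAGGTCCGG

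The Thra2 transcript had 390 and 432 TPM, or 84.0% and 82.3% of the gene. The Thra1 transcript had 19.3 and 17.8 TPM, or 4.15% and 3.4% of the gene. The Thra3 transcript, whose annotated model is incomplete, had 44.8 and 60.2 TPM, or 9.65% and 11.5%. The 5 non-coding Thra transcripts together took 2.22% and 2.77%.

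Transcripts with the Thra2-type end thus made up 95.7% and 96.5% of the RNA assigned to the 3 forms (96.1% ± 0.534, n = 2). The deposited TPM of Thra1 was still 19.3 and 17.8, well above the whole of Thrb at 0.37 and 0.36 TPM. On the mm9 assembly, transcript RPKM gave a Thra2-type share of 96.9% and 97.1% in its 2 fields. No label says which mm9 field holds which replicate, and they are written as field 1 and field 2. The RPKM and junction tables may not order their fields alike, so a field number is not carried from one to the other.

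Splice junction reads measured the Thra2-type end directly. The junction into the Thra2 acceptor carried 4283 and 6260 reads in fields 1 and 2, and the junction into the Thra3 acceptor 265 and 453 reads. Thra1 has no junction of its own, since it runs on at this point. Per 100 reads of the shared junction just upstream, the Thra2-type acceptors together had 66.7 and 68.1 reads. The reads of the 7 junctions that lie between exon 2 and exon 9 themselves ranged from 8875 to 16665 over both fields, against 10543 into the Thra2 acceptor, so the uneven coverage along the gene is as large as the gap and this ratio does not measure Thra1.

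**Figure D3:**
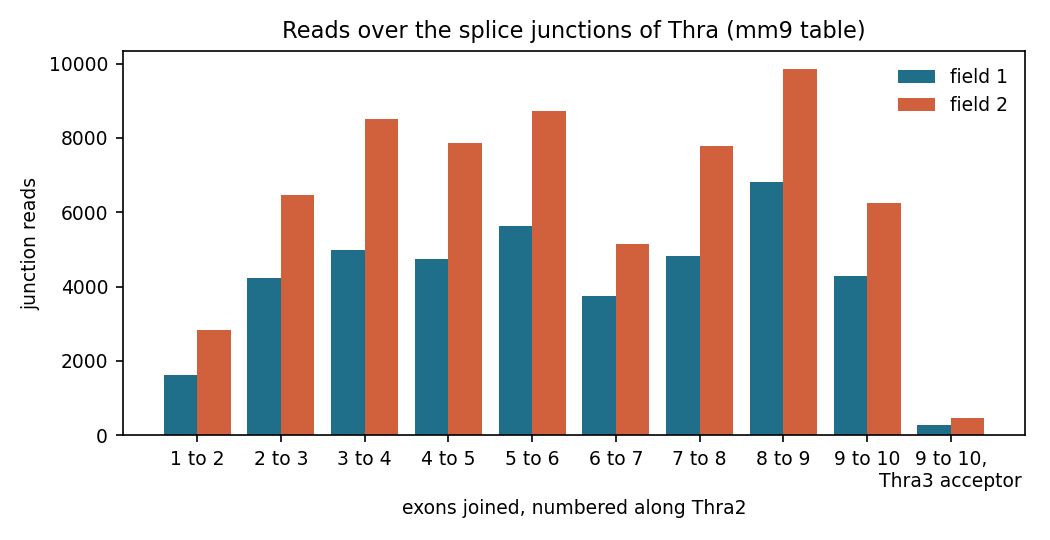
Reads over each annotated splice junction along Thra2, in order from the 5′ end, and over the Thra3 acceptor, in the 2 fields of the mm9 junction table (not normalised for depth). Reads into the Thra2 acceptor (4283 and 6260) fell within the range of the upstream junctions, and reads into the Thra3 acceptor were 265 and 453.

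The share of Thra3 depended on the measure. Of Thra2 and Thra3 together, Thra3 took 10.3% and 12.2% in TPM, 5.05% and 6.08% in expected counts, and 5.83% and 6.75% in junction reads. In mm9 transcript RPKM it took 0.81% and 0.173%. The Thra3 model is 1240 nucleotides long against 2452 for Thra2, and TPM divides by length. The junction reads, which need no length, lay beside the expected counts.

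A pair of features of the Thra locus bear on these values. The last exon of Thra2 shares 263 of its 850 nucleotides with exons of Nr1d1, a circadian repressor gene on the opposite strand, and the 130-nucleotide last exon of the Thra3 model is shared in full. Nr1d1 itself had 2.62 and 2.44 TPM, 177-fold and 215-fold below Thra. The libraries are stranded, but whether the counting used strand is not given in the sources used here. At the 5′ end, the first exon of Thra2 supplied 88.1% of the junction reads into exon 2 over both fields, and another exon upstream of exon 2 supplied 9.04%.

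Within the little Thrb RNA present, the long Thrb1 transcript (461 codons) took 92.0% and 95.1% of TPM. The pituitary- and retina-type form Thrb2 (475 codons) had 0 counts in both replicates, which allows up to 2.24% and 1.71% of Thrb counts. Annotated Thrb junctions carried 22 and 28 reads in the mm9 fields, and unannotated ones 10 and 11 reads, or 29.6% over both fields. The 6 pituitary markers summed to 15.7 and 6.08 TPM.

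Of the transporters, Slco1c1 was the higher of the 2 genes of the set. Slco1c1 (ENSMUSG00000030235, chromosome 6, 141524368 to 141570177, plus strand) encodes OATP1C1, which carries thyroxine across brain endothelium and choroid plexus, and had 5.37 and 6.83 TPM (6.10 ± 1.03, n = 2). Slc16a10 (ENSMUSG00000019838, chromosome 10, 40033532 to 40142258, minus strand), which encodes the aromatic amino acid and thyroid hormone transporter MCT10, had 2.48 and 3.23 TPM (2.85 ± 0.53, n = 2). Slco1c1 stood 2.17-fold and 2.11-fold above Slc16a10, and the replicates of the 2 genes did not overlap.

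Both transporters were higher in replicate 2, beyond counting error. The log2 ratio was 0.34 for Slco1c1 (95% interval 0.22 to 0.46) and 0.38 for Slc16a10 (0.26 to 0.51). A ratio at least as far from 0 as that of Slc16a10 was found for 17.4% of genes at the count minimum. The 6 endothelial markers had a median log2 ratio of -0.01, with 3 above and 3 below 0, and summed to 232 and 247 TPM. The 6 choroid plexus markers had a median of 0.43, with 4 above and 2 below 0. Their sum was 1068 and 1496 TPM, of which Ttr alone gave 999 and 1422 TPM. Whether these cell types have a part in the transporter difference was not tested.

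Slco1c1 has an annotated transcript marked for nonsense-mediated decay, which uses an acceptor 41 nucleotides downstream of that in the coding transcript. The bases at this junction on chromosome 6 are shown because the 2 transcripts are told apart there; lower case is the shared exon end and capitals are the first 15 bases after the junction.
Slco1c1 coding: tgtctcctaccaaggAACCAAACCTGTCTC
Slco1c1 decay: tgtctcctaccaaggATTGCAACTCAAGAT

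The deposited percent of the gene's TPM in the decay transcript was 42.3% and 47.2%. The mm9 junction reads gave a much lower share: its acceptor had 8 and 5 reads in the 2 fields, against 65 and 98 for the coding acceptor. Over both fields this was 13 of 176 reads, or 7.39% (exact 95% interval 3.99% to 12.3%). The estimated share of the Slco1c1 decay transcript was therefore not matched by reads over the splice site that sets it apart.

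**Figure D4:**
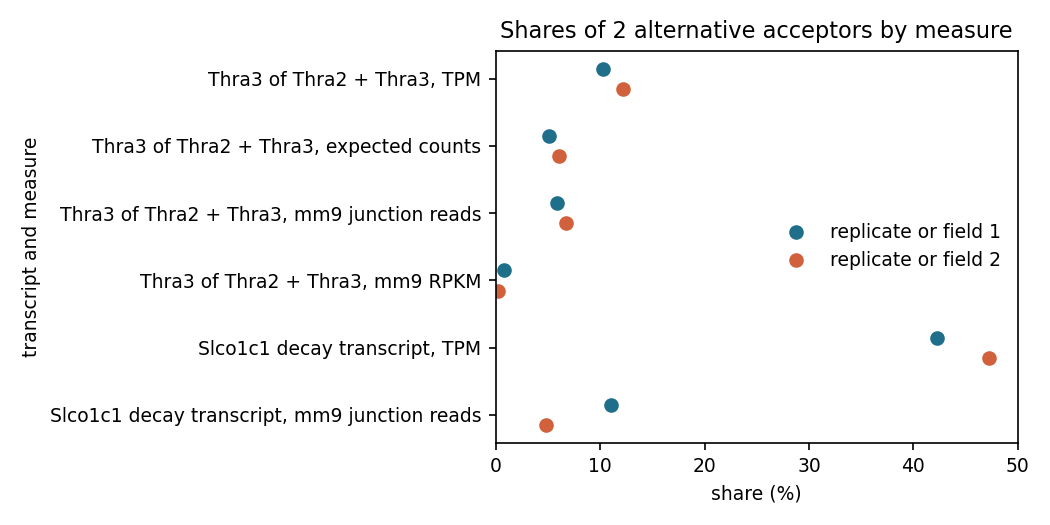
Share (%) of Thra3 among Thra2 plus Thra3, and of the Slco1c1 decay transcript in its gene or at its acceptor, by measure, for replicate 1 and 2 (mm10) or field 1 and 2 (mm9). For the decay transcript the deposited TPM gave 42.3% and 47.2%, while junction reads gave 11.0% and 4.85%.

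The other hormone transporters gave a wider picture of uptake. Of 7 listed, 4 reached 1 TPM in both replicates, none at the count minimum was 2-fold apart, and the highest was Slc3a2, the heavy chain of the L-type amino acid transporters, at 74.7 and 78.9 TPM. Its light chain Slc7a5 had 51.8 and 56.5 TPM. The liver bile acid transporter Slc10a1 was lowest, with 0 and 3 counts, and was 1 of 6 of the 58 listed pathway genes 2-fold or more apart when no count minimum was set, all with mean counts below 200. Without that minimum 17.5% of the 25241 genes above 0 in either replicate were 2-fold apart.

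Dio2 was the lowest of the 9 genes, at a level where little can be said of it. Dio2 (ENSMUSG00000007682, chromosome 12, 90724552 to 90738438, minus strand) had 0.28 and 0.22 TPM (0.250 ± 0.0424, n = 2), from 99 and 106 expected counts. Its single annotated junction had 0 reads in both mm9 fields, which allows up to 3 reads in each. The antisense gene Gm26512 overlaps it.

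The inactivating enzyme gene was the higher of the pair. Dio3 had 6.72 and 6.61 TPM, 24.0-fold and 30.0-fold above Dio2. Dio1, the deiodinase of liver and kidney, had 0 counts in both replicates, which allows up to 0.0301 and 0.0223 CPM by counting error. Its deposited credibility bounds, 0.106 to 0.585 and 0.0787 to 0.431 TPM, lay above the estimate of 0, so the 2 limits differ. Of the 6 genes listed for deiodination and Dio2 turnover 5 reached 1 TPM and none was 2-fold apart; the highest was Wsb1, part of a ubiquitin ligase that targets Dio2 protein, at 738 and 667 TPM. Astrocytes and tanycytes are the known brain sources of Dio2. Of the 6 astrocyte markers 4 were detected, and Aqp4 and Gfap stayed below 1 TPM. The 3 tanycyte and ependymal markers were detected and summed to 26.0 and 22.8 TPM. Most of this came from Foxj1 (14.3 and 15.6 TPM) and Col23a1 (10.7 and 5.99 TPM), with Rax at 1.0 and 1.27 TPM. Whether astrocytes or tanycytes were present was not tested.

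Crym was the third highest of the 9 genes and differed most between the replicates. Crym (ENSMUSG00000030905, chromosome 7, 120186380 to 120202111, minus strand) encodes mu-crystallin, an NADP-dependent protein that binds triiodothyronine in the cytosol. It had 25.3 and 14.5 TPM (19.9 ± 7.64, n = 2), from 1932 and 1475 expected counts, and 98.4% and 98.9% of its TPM lay in the coding transcript.

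The Crym log2 ratio was -0.80 (95% counting interval -0.90 to -0.71), so replicate 1 was higher. At the same count minimum, 6.07% of genes were at least as far apart. The mm9 RPKM of Crym were 1.40 and 2.47 in the 2 fields of that table and its annotated junction reads 1933 and 1458 in those of the junction table, from which no direction between replicates is read. Crym is also known from skeletal muscle and the inner ear, whose markers were higher in replicate 1 (median log2 ratio -6.18 over 6 markers and -3.77 over 5). The 6 markers of cortical excitatory neurons, another known site of Crym, went the other way, at 233 and 474 TPM in sum (median 0.97). The part of either tissue in the Crym difference was not tested.

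Ncor1, which bridges unliganded receptors to histone deacetylase, was the second highest of the set and the most even in TPM. Ncor1 (ENSMUSG00000018501, chromosome 11, 62316426 to 62458541, minus strand) had 127 and 126 TPM (127 ± 0.742, n = 2), from 22272 and 31518 expected counts. Thra stood 3.65-fold and 4.17-fold above it. Its log2 ratio in TMM-scaled counts was 0.09 (95% counting interval 0.06 to 0.11), but -0.01 in deposited TPM, so no direction between the replicates is given.

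The Ncor1 transcripts made the same contrast between units as Thra3. Retained-intron transcripts took 35.8% and 32.2% of the gene's TPM but only 5.83% and 4.99% of its counts, and most of this lay in a model of 643 nucleotides with 31.2% and 27.3% of TPM. The 3 transcripts with 45 or more exons, of 26 in all, took 8.86% and 9.94% of TPM but 27.3% and 28.6% of counts. Of the coding transcripts, a model of 28 exons had 17.5% and 19.2% of TPM and one of 3 exons had 11.7% and 11.5%. The TPM of Ncor1 thus rests in large part on short models. The genes Pigl and Ttc19, on the opposite strand, overlap Ncor1.

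The partners that act with the receptors were all detected. All 5 listed members of the corepressor complex, all 3 retinoid X receptors and all 7 coactivators reached 1 TPM in both replicates, and none was 2-fold apart. For these and the other pathway lists, the background of detection is the 63.4% of protein-coding genes at 1 TPM in both replicates. At the count minimum 4.24% of all genes were 2-fold apart, so finding none apart is near what this background gives. In the corepressor complex Hdac3, the deacetylase that Ncor1 activates, was highest at 158 and 166 TPM and Tbl1xr1 lowest at 12.6 and 12.1 TPM.

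Rxrb, at 74.7 and 80.3 TPM, led the retinoid X receptors, with Rxra at 17.1 and 11.9 TPM and Rxrg lowest at 6.90 and 6.85 TPM. Rxrb stood 4.37-fold and 6.74-fold above Rxra. Of the coactivators, Ep300, a histone acetyltransferase, was highest at 28.1 and 28.5 TPM and Ppargc1a lowest at 5.44 and 6.30 TPM.

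**Figure D5:**
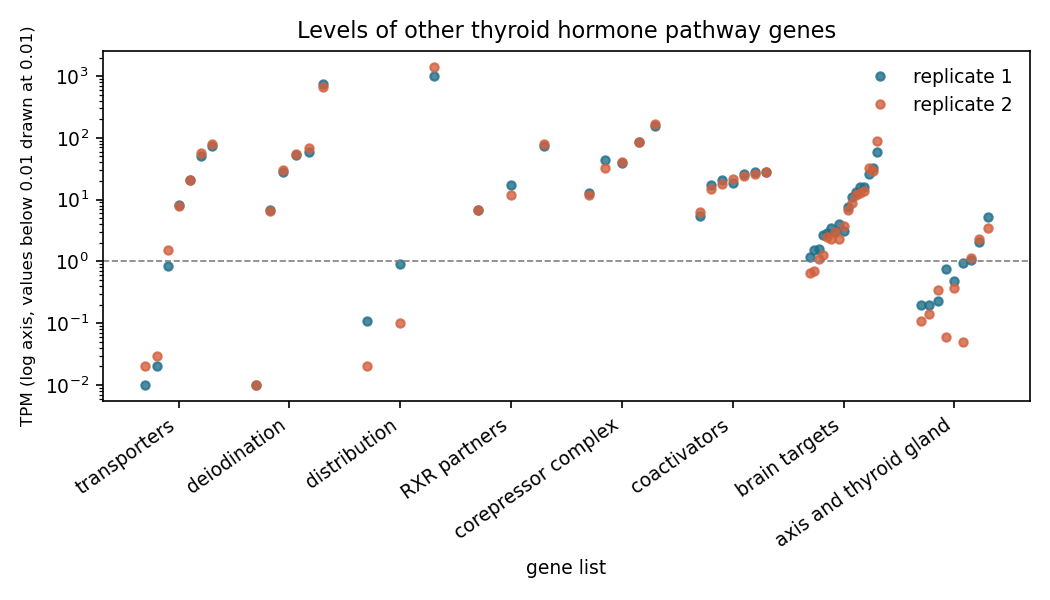
TPM (log axis, 1 TPM dashed) of the listed pathway genes outside the set of 9, grouped by role, with 1 point per gene and replicate. The RXR partners, corepressor complex and coactivators lie wholly above 1 TPM, and 6 of the 9 genes of the hormone axis and thyroid gland lie below it in both replicates.

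The hormone-induced genes of the set were low. Hr (ENSMUSG00000022096, chromosome 14, 70552212 to 70573548, plus strand), a receptor corepressor and histone demethylase gene, had 1.84 and 1.63 TPM (1.73 ± 0.148, n = 2), from 617 and 729 expected counts. Klf9 (ENSMUSG00000033863, chromosome 19, 23141226 to 23168134, plus strand), which encodes a zinc finger transcription factor, had 1.32 and 1.07 TPM (1.20 ± 0.177, n = 2), from 257 and 278 expected counts. Hr stood 1.39-fold and 1.52-fold above Klf9 and their ranges did not overlap.

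Both had a lower count in replicate 2 after scaling. The log2 ratio was -0.17 for Hr (95% counting interval -0.33 to -0.02) and -0.30 for Klf9 (-0.55 to -0.05). Such distances are common: 43.1% and 23.3% of genes above the count minimum were at least as far apart. Spliced reads were present for both, with 285 and 368 reads over annotated Hr junctions and 21 and 19 over the single Klf9 junction. The coding transcript of 20 exons took 93.4% and 91.7% of the TPM of Hr.

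Hormone-dependent genes known from the later brain were mostly present at modest levels. Of 17 listed, 15 reached 1 TPM in both replicates, with a median of 4.04 and 3.68 TPM. With no count minimum, 13 of the 17 had a log2 ratio below 0, with a median of -0.21. Only 14 of the 17 were at the count minimum, so the median of 0.02 over all genes at that minimum has another basis. The share of all genes below 0 was not computed, and no shift of the list is read from this. Reln, which guides migrating neurons, was highest at 59.3 and 87.8 TPM. Rasd2, a striatal GTPase gene, was lowest by mean at 1.17 and 0.65 TPM. The myelin gene Mbp had 13.2 and 12.0 TPM, and the Golli transcripts of its locus are known from neurons as well. Of the 17, Pcp2 (36 and 23 counts) and Ntf3 (204 and 127 counts) were 2-fold or more lower in replicate 2, both below a mean count of 200, against 12.9% of the 25241 genes above 0 in either replicate.

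Genes of hormone supply and of the thyroid gland were low, apart from Ttr. Ttr, the thyroxine carrier of choroid plexus, had 999 and 1422 TPM, while the other 2 distribution genes were below 1 TPM: Alb had 106 and 15 counts and Serpina7 had 4 and 3. Of the 9 genes of the axis and gland 3 reached 1 TPM in both replicates, led by Pax8 at 5.23 and 3.5 TPM. The pituitary hormone genes Tshb (18 and 2 counts) and Cga (29 and 2 counts) were, with Alb, 2-fold or more lower in replicate 2. All 3 were below the count minimum, and without it 12.9% of all genes were lower by that much.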

How the data were processed

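Poly(A)+ RNA-seq of 2 replicates of 1 group was analysed. Per the labels and the text deposited with the tables, the authors quantified each replicate on mm10 with GENCODE M4; which aligner and quantifier were used is not given in the sources used here. The deposited tables give expected counts (estimates that need not be whole), TPM and FPKM per gene and transcript, the percent of a gene's TPM in each transcript, and, as a signal, credibility bounds of TPM whose level is not given. The deposited mm9 tables give RPKM for Ensembl release 65 and unscaled junction read counts, in 2 fields that no label ties to a replicate.

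Symbols, positions and transcript structures came from GENCODE M21 (42462 of 43346 genes matched by stable identifier). The sequences at the branch points were read from its transcripts. ERCC spike-ins (2.45% and 2.35% of counts) and 26248 features named by number (1 and 5 counts) were left out of library sizes. Genes were called detected at 1 TPM. Expected counts were rounded, scaled by TMM in edgeR 4.0.16 (R 4.3.3) with a prior count of 1, and called apart at 2-fold. The set ratios were recovered on counts simulated with counting error only and as many genes raised as lowered. That setting does not test the scaling under the one-sided difference between these replicates. Intervals are exact binomial at 95% and, like the floor of 3 counts, cover counting error only, because PCR copies could not be removed by molecular identifiers. DESeq2 1.42.0 gave alternative size factors. Python 3.11.15, pandas 2.3.3, numpy 2.4.6, scipy 1.17.1 and matplotlib 3.10.9 were used.

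All 9 genes are named; from each pathway list the counts, the highest, the lowest and every gene 2-fold or more apart are given, and transcripts are named at a mean share of at least 10%. Most of the 58 listed pathway genes are counted but not reported by name here. The genes and the lists were chosen with earlier results of these data known. TPM depends on transcript models and their lengths, which matters for short models. The alternatives were other thresholds, units, scalings, prior counts and count minimums, and each replicate alone.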

Additional observations from a re-analysis of the deposited data

Results flagged for a closer look

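A pair of junctions in genes of the set carried at least 5 reads in both mm9 fields although neither end lies at an annotated exon edge of Ensembl release 65, above the 3 reads that a count of 0 allows. They belong to no comparison above. Both are listed on the strand of their gene, because only such junctions were kept, but how that strand was assigned and the splice site letters were not examined. In Thra, an intron of 70 nucleotides inside the last exon of Thra2 (mm9, chromosome 11, 98629828 to 98629897) had 44 and 52 reads, 96 in all, against 4283 and 6260 reads into that exon. In Ncor1, an intron of 2762 nucleotides (mm9, chromosome 11, 62211939 to 62214700) had 6 and 10 reads, 16 in all.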

How the results depend on the processing

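Of 90 values recomputed with another unit, scaling or threshold or with 1 replicate, 75 stayed within their replicate spread, counting interval or 1.5 times, 14 moved further and 1 changed sign beyond its counting interval. The number of genes detected, 7 of 9, was 4 at 5 TPM and 3 at 1 RPKM on mm9, and 7 in either replicate alone. For the pathway lists 44 of 58 became 28 at 1 RPKM on mm9 and 45 to 46 in either replicate alone. A cut of 1 RPKM was stricter than 1 TPM here. Each gene of the set had a lower mean in RPKM than in TPM (Thra 53.1 against 495, Slc16a10 0.381 against 2.85). Thra over Thrb, 10.4 on the log2 scale, was 8.93 in CPM (not per length), 9.77 in mm9 RPKM and 8.50 as log2(TPM + 1), and 10.29 to 10.51 in either replicate alone. The Thra2-type share, 96.1%, was 97.0% in mm9 RPKM and 67.4 per 100 upstream junction reads, which is another quantity, and 95.7% to 96.5% in either replicate alone. The share of all genes 2-fold apart, 4.24%, was 2.43% at a mean count of at least 1000 and 17.5% with no minimum. No gene of the set was 2-fold apart under any of the 6 scalings or priors tried. The Ncor1 ratio of 0.09 became -0.01 in deposited TPM, the Thrb ratio ranged from -0.05 to 0.03 and that of Crym from -0.83 to -0.75. Except where the quantity or the minimum differs by construction, the cause of a shift was not tested. No paired analysis was possible because the labels give a single group. Depth limits Thrb, Dio2 and Klf9 most, and 2 pools from 1 donor identifier limit all.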

Other observations

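The 7 unannotated Thra junctions with at least 5 reads in both mm9 fields included 3 that join known exon edges past a skipped exon. Reads that joined exon 1 to exon 3 numbered 39 and 62, against 1628 and 2844 from exon 1 to exon 2. Reads that joined another exon upstream of exon 2 to exon 3 numbered 14 and 17, against 152 and 307 from that exon to exon 2. Reads that joined exon 3 to exon 5 numbered 27 and 27, against 4978 and 8503 from exon 3 to exon 4. Unannotated junctions made up 0.818% of Thra junction reads over both fields and 1.74% of those of Ncor1, which had 8 such junctions at that read number. For Thrb the share was 29.6%, of the few reads given above.

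The letters AGGTCA, the core of a thyroid hormone response element, were searched on both strands in RefSeq promoters (GRCm38.p6, 250 bases before to 50 after a gene's start), with 8 promoters of 6 genes of the set present. One held it, that of Thrb, 184 bases before the RefSeq start. The bases around the match (chr14:17660764-17660793, plus strand) lie downstream of the GENCODE start of Thrb given above, 17660261, so within the gene as annotated there. They are shown with the match in capitals because this promoter is the only one among them to hold it.
Thrb: aggagagttgacAGGTCAagggaatagggc
Over all 32851 promoters 16.3% held these letters. The direct repeat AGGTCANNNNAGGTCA, which contains that core, stood in 5 promoters (0.0152%) and in none of the set. A match is a description of these letters in this window.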
